A study of Gallus gallus with 14 samples.

Results

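The genes described here were those whose signal in the retinal pigment epithelium (RPE) of the chicken embryo was higher at embryonic days 10 and 14 (E10, E14) than at both E7 and E18. They were chosen by measured values. On log2(intensity + 16) after quantile normalization, the lower of the E10 and E14 means had to exceed the higher of the E7 and E18 means by at least 0.7, and the mean over 14 arrays had to be at least 7. This excess is called the peak margin. A probe set, the group of probes that reports 1 transcript on an Affymetrix array, also had to carry a single gene symbol, and CP, EDNRB and genes of the SLC solute carrier series were left out by the rule. It was met by 99 of 38439 probe sets, which report 78 of 13009 genes.

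Total RNA came from untreated sheets of RPE dissected at 4 ages, with 3 arrays for each of E10 and E14 and 4 for each of E7 and E18. Each array carried an independent preparation pooled from 20 to 30 eyes, so an array stands for a pool and not for 1 embryo. RNA was biotin-labelled by 3' amplification and hybridized to arrays of the chicken genome. No other strain, treatment or genotype was given in the sources used here.

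The RPE is a single pigmented layer between the photoreceptors and the choroid, the vascular and connective tissue behind it. It secretes part of Bruch's membrane, the sheet of extracellular matrix it rests on, forms the outer blood-retinal barrier through its tight junctions, and recycles the retinoid used in vision. Over these ages, which run from before the photoreceptors elongate to shortly before hatching, the layer stops dividing and its junctions tighten. The RPE markers BEST1, MITF, OTX2, PMEL, RLBP1, RPE65, TTR and TYR lay above the signal limit of 6.20 (log2), below which the dimmest 40% of probe sets fell, on every array.

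Arrays of the low ages did not all come with an instrument file, and this runs along with the peak. All 6 arrays of E10 and E14 have an instrument file. At E7 only replicate 4 has one, and at E18 only replicates 1 and 4, so 5 arrays of the low ages have none, and when they were run is not given in the sources used here. The fluidics station in these files was 1 for E7 replicate 4, and 1, 2 and 2 for E10 replicates 1 to 3. It was 2, 2 and 3 for E14 replicates 1 to 3 and 3 for both E18 arrays, so the station ran along with age. E7 replicates 1 and 2 and E18 replicates 2 and 3, all without a file, stood apart on the second principal component, which held 15.7% of the variance. Their ratio of 3' to 5' actin signal was 1.18 to 1.30, against 1.36 to 1.73 on the other 10 arrays. Such ratios are a sign of RNA integrity and labelling. For GAPDH the ratio overlapped, at 0.9595 to 1.001 on these arrays against 0.9476 to 1.112 on the others. It also overlapped for EF1A, at 1.338 to 1.502 against 1.301 to 1.613, so only the actin ratio set these arrays apart. Values are therefore given over all 14 arrays and over the 9 with a file, where E7 has 1 array. The number of arrays limits the precision.

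Over all arrays the peak margin of the 99 probe sets had a median of 0.96 and a highest value of 2.27, and 43 reached 1. These values chose the members and are descriptive. Of the 13956 probe sets with a single symbol and a mean of at least 7, 0.709% met the rule, and 0.201% met its mirror image, a trough of the same depth. In 80 members, from 61 genes, all 6 arrays of E10 and E14 lay above all 8 of E7 and E18, a pattern found in 2.21% of those 13956 probe sets. Averaged over the members after centring each on its own mean, the 3 arrays of E10 stood at 0.91, 0.97 and 0.94 and those of E14 at 0.84, 0.84 and 0.81. At E7 replicates 1 to 4 stood at -0.66, -0.95, -0.22 and -0.32, and at E18 at -0.53, -1.11, -1.01 and -0.50. Over all arrays the high ages were thus tight and the low ages spread. The median SD over members was 0.41 for E7 and 0.42 for E18, against 0.11 for E10 and 0.10 for E14. On the 2 E18 arrays with a file it was 0.098, so the spread at E18 lay between arrays with and without a file. E7 has 1 array with a file and gives no such value.

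**Figure D1:**
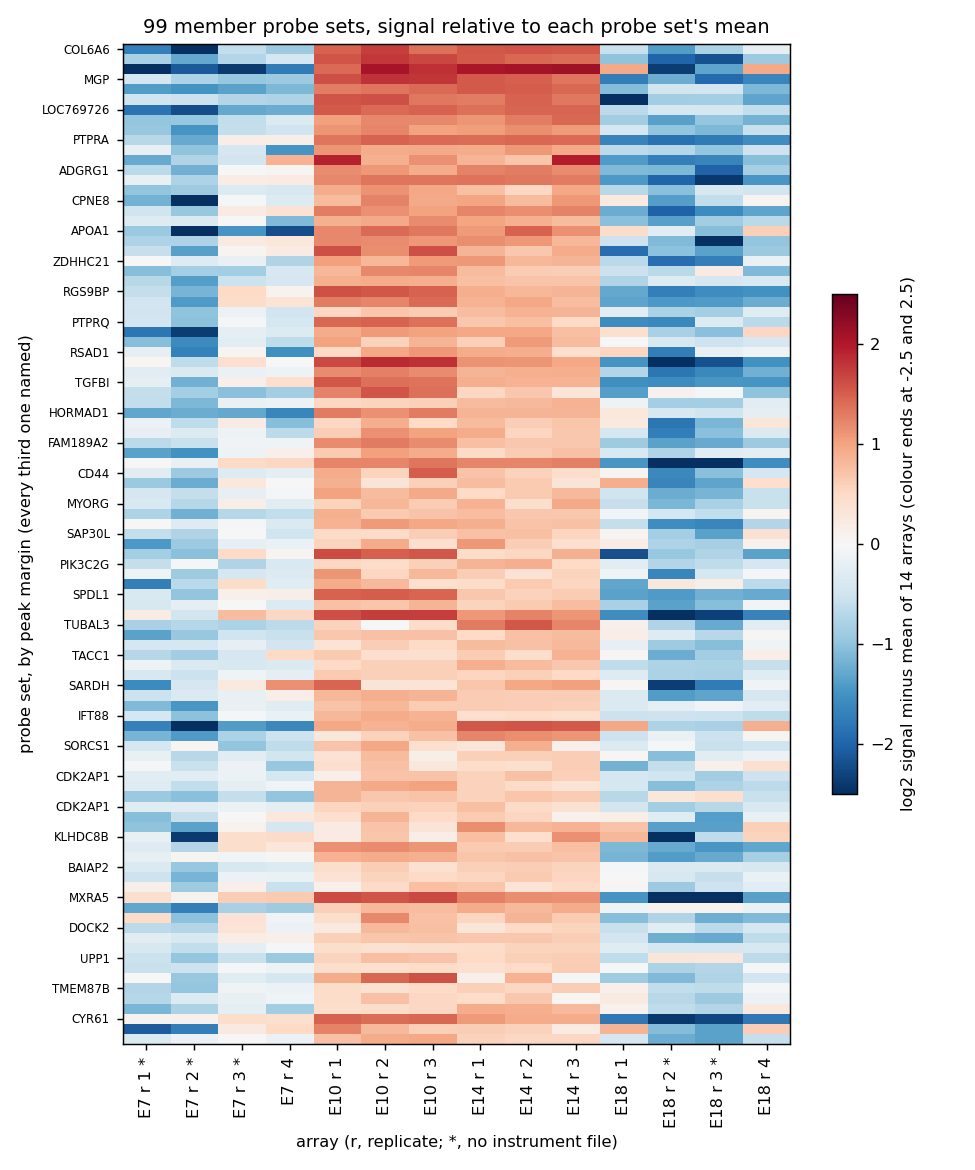
Heat map of the 99 probe sets (rows, by peak margin) on the 14 arrays (columns), coloured by log2 signal minus the probe set's mean. E10 and E14 form a block above the mean, and the arrays marked with an asterisk, which have no instrument file, hold many of the darkest blue cells at E7 and E18.

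The arrays with a file were less far below the peak. At E7 the array with a file was higher than the mean of the 3 without in 73 members, by a median of 0.33, and at E18 the same held in 79 members, by a median of 0.53. Over the 13956 probe sets these medians were -0.04 and 0.01. On the 9 arrays with a file, 53 members, from 41 genes, kept a margin of at least 0.7, a limit that 0.602% of the 13956 probe sets met on those arrays. Another 39 kept a margin above 0 and under 0.7, and 7 had none. The median margin was 0.74. In 86 members all 6 arrays of E10 and E14 lay above the 3 low-age arrays with a file, which held for 5.22% of the 13956 probe sets. Without the 4 arrays that stood apart, 52 members kept 0.7, 5 were at or below 0 and the median was 0.72. The arrays kept in each case, with all 6 of E10 and E14, were among those the rule used to choose the members. The member counts, set against the 13956 probe sets, are therefore in part fixed by that choice and are descriptive. The part of array run and RNA integrity in the margins was not tested.

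**Figure D2:**
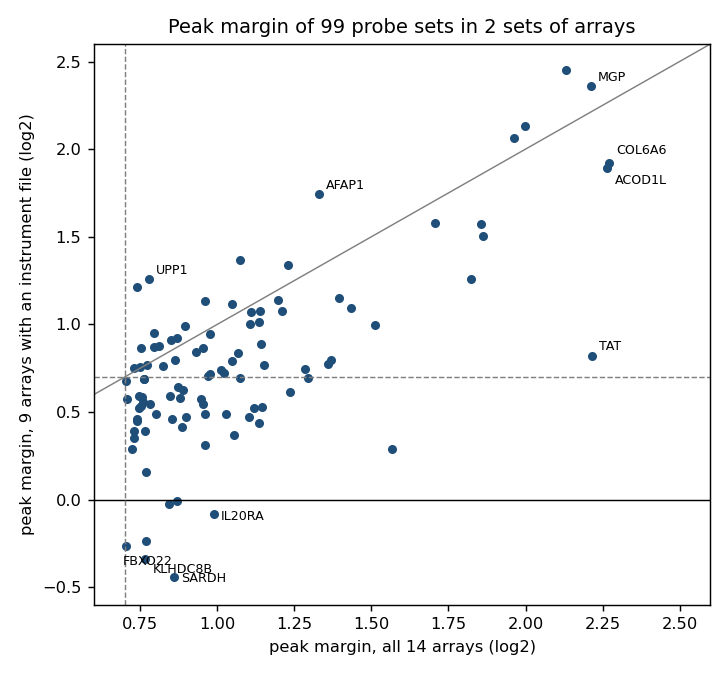
Peak margin of each of the 99 probe sets over all 14 arrays (x axis, log2) against that over the 9 arrays with an instrument file (y axis, log2). Dashed lines mark 0.7, the solid diagonal marks equality, and the 7 points at or below the horizontal line at 0 include SARDH, KLHDC8B, FBXO22 and IL20RA.

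The 7 without a margin on those arrays were IL20RA, TACC1, SARDH, FHL2, SCG2, KLHDC8B and FBXO22, listed here after their values were seen. FHL2, a LIM-domain adaptor protein of muscle and other cells, read 8.19, 6.84, 8.49 and 8.28 at E7, 10.85, 10.75 and 10.81 at E10, 11.44, 11.45 and 11.41 at E14, and 10.85, 9.12, 9.06 and 10.80 at E18. On the E18 arrays with a file, replicates 1 and 4, it stood at the level of E10, and its margin moved from 0.84 to -0.02. SARDH, the mitochondrial sarcosine dehydrogenase, read 5.58, 6.77, 7.43 and 8.33 at E7, so that its E7 array with a file lay within the E10 range of 7.499 to 8.63. For all 7, the limit of 0.7 was met only with the arrays without a file included.

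Genes of the extracellular matrix numbered 11 of the 78, with 17 member probe sets, and were grouped by known role after the values were seen. They comprise the collagen chains COL6A6, COL11A1, COL9A3 and COL5A1, the crosslinking enzyme LOX, the mineralization inhibitor MGP, the hyaluronan-associated ITIH5, the collagen-binding SPARC, the integrin-binding TGFBI and CYR61, and the secreted adhesion protein MXRA5. All 17 kept a margin above 0 on the arrays with a file, from 0.46 to 2.36, and 10 kept at least 0.7. In 16 of them all 6 arrays of E10 and E14 lay above the other 8, as in 80 of the 99 members and 2.21% of the 13956 probe sets, and these are values the rule used. In bulk tissue, fewer cells of a type and less RNA per cell cannot be told apart.

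COL6A6, a chain of the beaded-filament collagen VI, had the widest margin. It read 5.58, 4.22, 6.68 and 6.37 at E7 and 8.75, 9.02 and 8.67 at E10, then 8.84, 8.86 and 8.84 at E14 and 6.72, 5.89, 6.496 and 7.07 at E18. Every array of the high ages was above every array of the low ages, by at least 1.60. Its margin of 2.27, a 4.83-fold difference on the log2(intensity + 16) scale, was 1.92 on the arrays with a file. E18 against E7 gave no call (0.83, limma adjusted p = 0.123), though without E7 replicate 3 it rose by 1.15 (adjusted p = 0.034). Since its E7 mean lay below the signal limit, that fold rests on the added 16, and the margin was 2.495 with 1 added and 1.80 with 64.

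MGP, matrix Gla protein, which binds calcium and keeps soft tissue from mineralizing, read 7.83, 7.49, 7.31 and 7.34 at E7 and 9.86, 10.06 and 10.04 at E10. It then read 9.79, 9.75 and 9.58 at E14 and 6.53, 7.00, 6.31 and 6.62 at E18. Arrays with and without a file overlapped at both low ages, and the margin was 2.21 over all arrays and 2.36 over those with a file. ITIH5, a heavy chain of the inter-alpha-trypsin inhibitors, which bind hyaluronan, gave 10.01, 9.49, 10.36 and 10.44 at E7 and 12.06, 12.18 and 11.96 at E10. It gave 11.99, 12.10 and 12.01 at E14 and 10.53, 9.97, 9.82 and 10.40 at E18. The E10 and E14 ranges overlapped, as did those of E7 and E18.

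**Figure D3:**
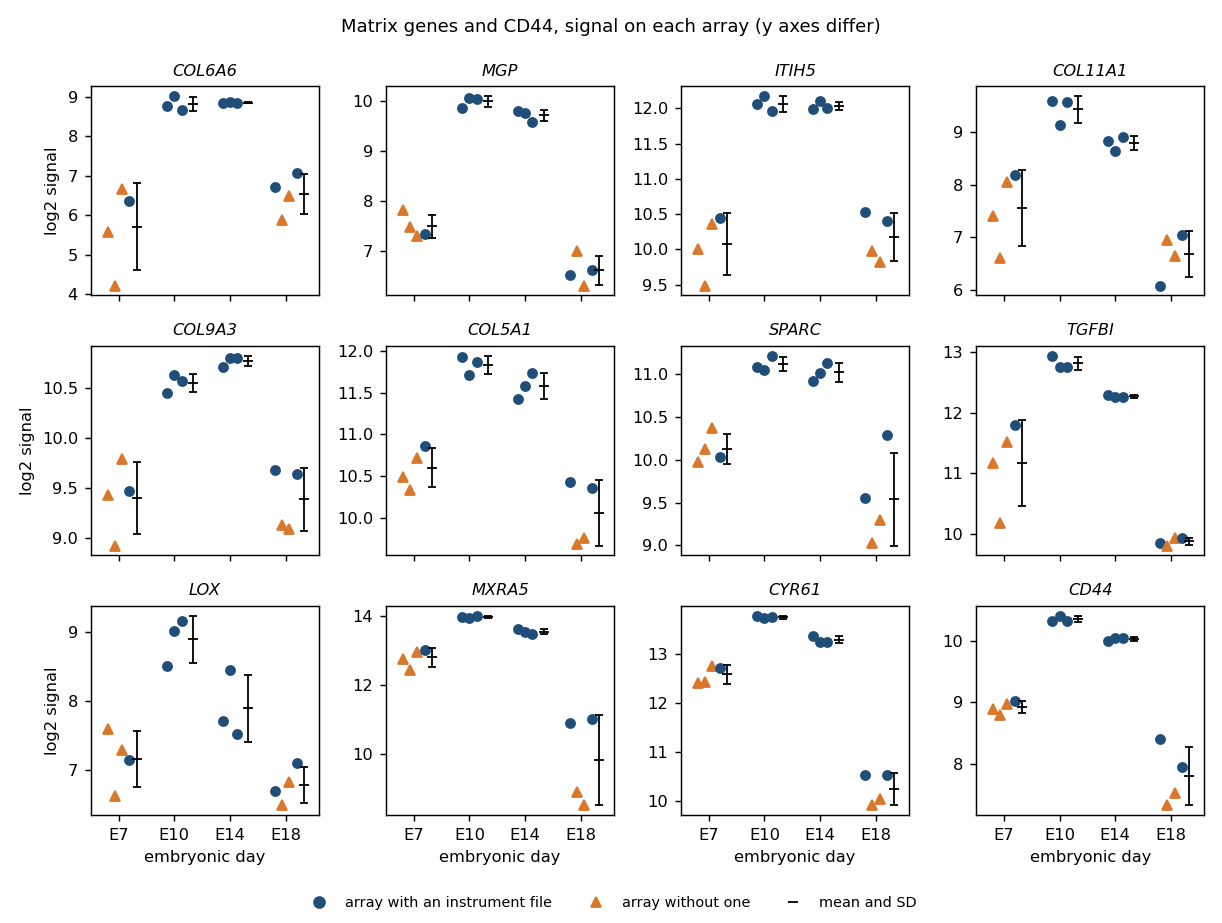
Signal (log2 of normalized intensity + 16, y axes differ) of the 11 matrix genes and CD44 on each array at 4 embryonic days, with 1 probe set per gene, circles for arrays with an instrument file, triangles for those without, and bars for mean and SD. In every panel but LOX the E10 and E14 points lie above all E7 and E18 points, and MXRA5, CYR61, TGFBI and CD44 are lower at E18 than at E7.

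How the level after the peak compared with that before it was tested by E18 against E7, a contrast whose sign the rule does not see. The test was limma's moderated 2-sided test over 23063 probe sets, with Benjamini-Hochberg adjustment and calls at an adjusted p under 0.05. Of the 99 members, 33 from 24 genes fell (33.3%), 12 from 10 genes rose (12.1%) and 54 gave no call. Over all tested probe sets 22.3% fell and 18.4% rose, and the median difference was -0.12 over the members and -0.05 over all. All 45 called members had the same sign on the arrays with a file and on those without. The calls were made on these 2 sets of arrays together, so the shared sign is in part fixed by the calling.

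Matrix genes that changed were lower at E18 than at E7 and none was higher. The 11 probe sets that fell belonged to 7 genes, MGP, COL11A1, COL5A1, SPARC, TGFBI, MXRA5 and CYR61. All 11 were lower at E18 on arrays with a file and on those without. On those without, 9 of the 11 were called, where 19% of all tested probe sets fell. The 11 were chosen by calls on both sets of arrays together, so this is in part fixed by the calling. MXRA5, a large secreted matrix protein, read 12.76, 12.44, 12.97 and 13.02 at E7 and 13.99, 13.93 and 14.01 at E10. It read 13.63, 13.53 and 13.49 at E14, then 10.88, 8.90, 8.49 and 10.995 at E18. The E18 arrays lay below all others, and those without a file were lower still. It fell by 2.98 (SE 0.42, limma adjusted p = 2.3e-05), and by 2.08 on the arrays with a file.

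CYR61, a matricellular protein of the CCN family that binds integrins, read 12.41, 12.43, 12.76 and 12.72 at E7 and 13.78, 13.72 and 13.75 at E10. At E14 it read 13.37, 13.25 and 13.24 and at E18 10.53, 9.91, 10.04 and 10.52. The ages did not overlap, and E18 was the lowest. It fell by 2.33 from E7 to E18 (SE 0.13, limma adjusted p = 5.0e-10), with a margin of only 0.71 because E7 was already high. COL11A1, a fibrillar collagen chain known from cartilage and the vitreous, fell on both member probe sets, by 2.06 (SE 0.31, limma adjusted p = 4.8e-05) and by 0.88 (SE 0.30, adjusted p = 0.027). The second of these fell by 1.61 on arrays with a file and differed by -0.56 (limma adjusted p = 0.346) on those without, and its call was lost without any 1 of E7 replicates 3 and 4 and E18 replicate 1 (-0.72 to -0.68). TGFBI, an adhesion protein of the corneal and other matrices, read 11.18, 10.19, 11.52 and 11.80 at E7, 12.75 to 12.94 at E10, 12.26 to 12.30 at E14 and 9.81 to 9.94 at E18. The E18 arrays were close together and below every E7 array, and it fell by 1.29 (SE 0.23, limma adjusted p = 2.4e-04).

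SPARC, a collagen-binding glycoprotein of remodelling matrix, fell on all 3 member probe sets, by 0.58, 0.64 and 0.73. On arrays with a file 2 of these were called, and the remaining one differed by -0.11 (limma adjusted p = 0.755). The call of that one was also lost without any 1 of E7 replicate 3 and E18 replicates 2 and 3 (-0.50 to -0.41). COL5A1, which nucleates collagen fibrils, fell by 0.54 and 0.95 on its member probe sets. The second differed by -0.31 on arrays with a file, without a call (limma adjusted p = 0.058). COL6A6, COL9A3, ITIH5 and LOX gave no call. COL9A3, a chain of the fibril-associated collagen IX, differed between E18 and E7 by -0.02 (SE 0.17) and -0.01 (SE 0.20) on its member probe sets.

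Over a wider list of matrix genes the margin was mostly below 0. Of 37 tested genes of a list of stromal and cartilage matrix, 5 were members (COL11A1, COL5A1, COL9A3, LOX and SPARC), the median margin over the list was -0.39, and 8 had a margin above 0. For E18 against E7, 14 of these 37 fell and 9 rose, where 22.3% and 18.4% of all tested probe sets did. None of 30 tested basement membrane and integrin genes was a member.

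Markers of choroidal fibroblasts are given beside these genes because a sheet of RPE can carry choroid. Summed over 27 marker genes, the linear signal was 4326 to 5171 at E7, 6074 to 6279 at E10, 4875 to 5036 at E14 and 3932 to 5002 at E18. It was highest at E10, and E14 lay within the range of E7. Of the 27, 11 lay below the signal limit at every age, among them PDGFRA, TWIST1, TWIST2 and KERA, which mark mesenchyme and stroma. Others were bright and so weigh most in the linear sum. COL1A2, a chain of collagen I, had means of 10.46, 11.40, 10.40 and 8.46 at E7, E10, E14 and E18, and COL3A1, of collagen III, of 9.56, 9.95, 10.23 and 10.33. THY1, a surface protein of fibroblasts and neurons, had 6.44, 7.56, 7.24 and 6.07, and FOXD1 had 10.35, 10.12, 10.02 and 10.07. THY1 and, at E10, COL1A2 were thus highest when the matrix members were, and COL3A1 and FOXD1 were not. The part of choroidal cells in the matrix signal was not tested. Marker sums of neural crest, melanocyte and Schwann cells were 26780 to 28560, 30950 to 32600, 30030 to 31040 and 23440 to 25740 at E7, E10, E14 and E18. Of the 18 genes on that list 7, FOXD3, KIT, NGFR and PAX3 among them, were below the limit at every age. MLANA, the brightest of the 18 and a melanosome protein that pigment epithelium also expresses, had means of 14.20, 14.41, 14.42 and 13.97. EDNRB, the endothelin receptor that the rule leaves out, had 10.35, 12.67, 12.04 and 10.58, a peak, and SOX10, a neural crest transcription factor, had 12.51, 11.29, 11.66 and 12.60, a trough. The part of such cells was not tested.

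The receptors CD44, the cell-surface receptor for hyaluronan, and ADGRG1, an adhesion G-protein-coupled receptor that binds collagen III, had 3 member probe sets each. All 6 kept a margin of at least 0.7 on arrays with a file, as 53 of the 99 members and 0.602% of the 13956 probe sets did. The rule used these arrays too. Another CD44 probe set, no member though its mean was above 7, had a margin of 0.27 over all arrays and -0.06 on those with a file. CD44 read 8.89, 8.79, 8.97 and 9.02 at E7, 10.32, 10.41 and 10.32 at E10, 9.99, 10.04 and 10.05 at E14 and 8.40, 7.33, 7.53 and 7.94 at E18 on the probe set with the widest margin. The ages were separate on this probe set and it fell by 1.12 (SE 0.18, limma adjusted p = 8.8e-05), while its other 2 member probe sets, at -0.56 and -0.31, gave no call. ADGRG1 fell on all 3, by 0.82, 1.32 and 1.12, and the first of these calls was lost without any 1 of E7 replicates 3 and 4 and E18 replicate 3 (-0.67 to -0.57).

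Member genes tied to the blood-retinal barrier included CLDN5 and ABCB1. Of 20 tested tight junction genes CLDN5 was the only member, 2 had a margin above 0, and the median margin was -0.51. CLDN5, a claudin that seals tight junctions, read 9.61, 9.18, 9.67 and 9.77 at E7, 11.28, 11.04 and 11.10 at E10, 11.15, 11.06 and 11.06 at E14 and 10.32, 9.94, 9.77 and 10.45 at E18. E18 stood between E7 and the peak, and it rose by 0.56 from E7 (SE 0.15, limma adjusted p = 0.0065). On arrays without a file it differed by 0.37 (adjusted p = 0.165). A second CLDN5 probe set, no member, had a margin of 0.36, with means of 10.48, 12.19, 12.18 and 11.82 at the 4 ages, so the size of the late decline depended on the probe set. ABCB1, the drug efflux pump P-glycoprotein, read 9.52, 8.95, 9.90 and 9.91 at E7, 10.92, 11.05 and 11.04 at E10, 11.07, 11.04 and 11.01 at E14 and 8.27, 7.72, 7.30 and 8.25 at E18. It fell on both member probe sets, by 1.68 (SE 0.22, limma adjusted p = 1.1e-05) and 2.29 (SE 0.25, adjusted p = 1.3e-06).

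Both genes are also known from endothelium. The summed signal of 27 endothelial and pericyte markers other than members was 2478 to 3201 at E7, 3439 to 3503 at E10, 3108 to 3683 at E14 and 3473 to 4073 at E18. Of the 27, 11, including CDH5, KDR, TEK and TIE1, were below the signal limit at every age. Others were brighter: ETS1 had means of 9.39, 9.85, 9.90 and 9.98 at E7, E10, E14 and E18. ERG had 8.02, 8.49, 9.02 and 8.96, and PECAM1 had 8.41, 8.92, 8.19 and 8.57. The part of endothelial cells in the CLDN5 and ABCB1 signal was not tested. KCNV1, a modifying subunit of voltage-gated potassium channels, had a margin of 1.70 (1.58 on arrays with a file). For E18 against E7 it differed by 0.06 over all arrays without a call, but rose by 0.87 on arrays with a file (limma adjusted p = 0.0033), and differed by -0.30 on those without (adjusted p = 0.476). GRIN3A, an NMDA receptor subunit, read 9.93, 9.30, 10.53 and 10.27 at E7, 11.37 to 11.49 at E10, 10.85 to 10.99 at E14 and 8.20, 5.81, 7.42 and 8.08 at E18. It fell by 2.63 (SE 0.39, limma adjusted p = 4.0e-05), and by 2.13 on arrays with a file.

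Of 11 member probe sets of 9 metabolic enzymes, grouped after their values were seen, 3 rose from E7 to E18, 2 fell and 6 had no call, where 18.4% and 22.3% of all tested probe sets rose and fell. ALDH1A2, which makes retinoic acid from retinal, read 6.91, 6.88, 6.69 and 6.64 at E7, 8.996, 9.03 and 8.74 at E10, 8.71, 8.89 and 8.73 at E14 and 4.45, 6.55, 6.58 and 6.10 at E18. The high ages were well above all others on both member probe sets, whose margins were 2.00 and 1.86. E18 was below E7 by 0.86 (SE 0.35) and 0.37 (SE 0.17) without a call (limma adjusted p = 0.063 and 0.089). On arrays with a file the differences were -1.37 (adjusted p = 0.0501) and -0.66 (adjusted p = 0.024), so the second was called there. Without the 4 arrays that stood apart both fell, by 1.39 and 0.53, and the first also fell without E18 replicate 2 or 3 (-1.08 to -1.07). Its E18 mean lay below the signal limit on the first probe set. Of 20 tested visual cycle and retinoid genes ALDH1A2 was the only member, 4 had a margin above 0, and the median margin was -0.70.

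TAT, tyrosine aminotransferase, known as a hormone-induced liver enzyme, read 4.39, 5.76, 5.47 and 6.11 at E7, 9.28, 9.92 and 9.69 at E10, 9.90, 9.95 and 9.99 at E14 and 8.81, 5.49, 6.54 and 8.80 at E18. The E18 arrays with a file were near 8.8, and those without were lower, near the E7 range. TAT rose by 1.98 from E7 (SE 0.59, limma adjusted p = 0.013), by 2.69 on arrays with a file and by 0.81 on those without (adjusted p = 0.427). APOA1, the main protein of high-density lipoprotein, rose by 1.76 (SE 0.39, limma adjusted p = 0.0016), also from an E7 mean below the signal limit. It rose by 2.75 on arrays with a file. On arrays without a file it differed by 1.03 (adjusted p = 0.281). A brighter APOA1 probe set, no member, had means of 7.92, 8.98, 8.59 and 7.63 at the 4 ages. It was thus lower at E18 than at E7, and the rise depended on the probe set.

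UPP1, which splits uridine, read 8.51, 8.38, 8.83 and 8.44 at E7, 10.28, 10.10 and 10.14 at E10, 10.0002, 10.13 and 10.08 at E14 and 8.74, 9.71, 9.83 and 8.88 at E18. At E18 the arrays without a file were the higher pair, and the margin was 0.78 over all arrays and 1.26 over those with a file. UPP1 rose by 0.75 over all arrays (SE 0.21, limma adjusted p = 0.0077), and the difference was 0.37 (adjusted p = 0.061) on arrays with a file. PDK1, a kinase that inhibits pyruvate dehydrogenase, read 12.48, 12.24, 12.20 and 12.23 at E7, 13.09, 13.19 and 13.19 at E10, 13.50, 13.39 and 13.28 at E14 and 11.96, 11.82, 11.80 and 12.03 at E18. Each age was separate from the others, and it fell by 0.39 from E7 to E18 (SE 0.08, limma adjusted p = 6.8e-04). It differed by -0.24 on arrays with a file, without a call (adjusted p = 0.062).

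**Figure D4:**
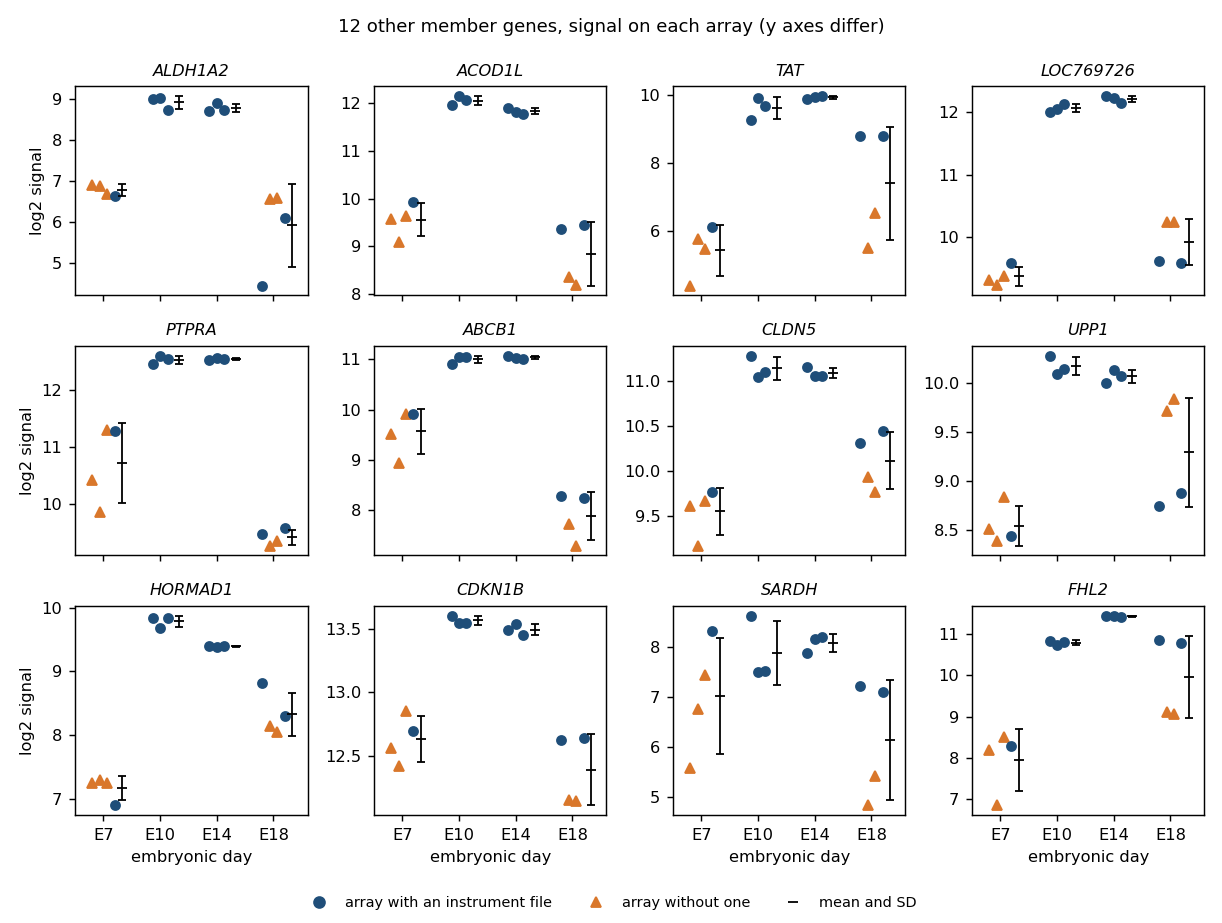
Signal (log2 of normalized intensity + 16, y axes differ) of 12 other member genes on each array at 4 embryonic days, with circles for arrays with an instrument file, triangles for those without, and bars for mean and SD. At E18, circles and triangles do not overlap in any of the 12 panels. The triangles are the higher pair for ALDH1A2, LOC769726 and UPP1 and the lower pair in the rest. For SARDH 1 E7 array lies among those of E10 and E14.

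Several signalling genes peaked. PTPRA, a receptor tyrosine phosphatase that activates Src kinases, read 10.42, 9.86, 11.30 and 11.27 at E7, 12.46, 12.60 and 12.55 at E10, 12.53, 12.56 and 12.54 at E14 and 9.46, 9.26, 9.35 and 9.57 at E18. Its E18 arrays lay below every E7 array and it fell by 1.30 (SE 0.23, limma adjusted p = 2.4e-04). A second member probe set fell by 1.06, and by 2.12 on arrays with a file, but on that one E7 replicate 4, at 12.02, overlapped the high ages. LDLRAD4, a membrane protein that restrains TGF-beta signalling, fell on both member probe sets, by 1.08 and 1.20. On arrays without a file the first differed by -0.95 (limma adjusted p = 0.131). RGS9BP, which anchors the RGS9 regulator of G-protein signalling in photoreceptors, fell by 1.22 (SE 0.25, limma adjusted p = 7.8e-04). PDGFC, a growth factor of the platelet-derived family, gave no call at 0.30 (SE 0.29), nor at -0.44 on arrays with a file.

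The members included CDKN1B and CDK2AP1, both tied to the arrest of the cell cycle. CDKN1B (p27), an inhibitor of cyclin-dependent kinases, read 12.56, 12.42, 12.85 and 12.70 at E7, 13.61, 13.55 and 13.55 at E10, 13.49, 13.54 and 13.45 at E14 and 12.63, 12.15, 12.14 and 12.64 at E18. Every array of the high ages was above the low ages by at least 0.60. E18 against E7 gave no call (-0.24, limma adjusted p = 0.108). It was called on arrays without a file (-0.46, adjusted p = 0.020) and without any 1 of E7 replicate 2 and E18 replicates 1 and 4 (-0.33 to -0.31). CDK2AP1, which binds CDK2, had 2 member probe sets, of which 1 fell by 0.37 (SE 0.11, limma adjusted p = 0.015). That one differed by -0.20 on arrays with a file (adjusted p = 0.321). Of 44 tested genes of a list of DNA replication and cell division none was a member, and 27 fell from E7 to E18 while 2 rose, where 22.3% and 18.4% of all tested probe sets did. SPDL1, which acts at kinetochores and is not on that list, was a member. It fell by 1.03 from E7 to E18 (limma adjusted p = 2.3e-04).

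The rises were led by FHL2, at 2.01 (SE 0.40, limma adjusted p = 6.4e-04), then by TAT and APOA1. METTL7A, a methyltransferase-like protein of lipid droplets, rose by 1.15 (SE 0.15, adjusted p = 1.1e-05), and by 0.76 on arrays with a file. HORMAD1, known from meiotic chromosomes, rose by 1.15 (SE 0.16, limma adjusted p = 2.9e-05), from 7.25, 7.30, 7.25 and 6.90 at E7 to 8.81, 8.15, 8.05 and 8.31 at E18, after 9.68 to 9.84 at E10 and 9.39 to 9.40 at E14. Its low ages did not overlap. LOC769726, with no named function in the files, had margins of 2.13 and 1.96 on 2 probe sets and rose on both, by 0.55 and 1.11. On arrays with a file the first of these was 0.03 (limma adjusted p = 0.863), and the second rose by 0.60.

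GPM6B, a membrane glycoprotein of the proteolipid family picked after seeing its values, fell by 1.12 (SE 0.10, limma adjusted p = 2.4e-07). ACOD1L, whose symbol marks it as ACOD1-like, read 9.56, 9.09, 9.64 and 9.93 at E7, 11.94, 12.14 and 12.05 at E10, 11.90, 11.81 and 11.76 at E14 and 9.37, 8.36, 8.19 and 9.45 at E18. It had a margin of 2.27 and fell by 0.71 (SE 0.24, limma adjusted p = 0.028). That call was lost in 9 alternative settings, among them leaving out any 1 of E7 replicates 1, 3 and 4 and E18 replicates 2 and 3 (-0.71 to -0.49, adjusted p from 0.0534 to 0.0995). It fell by 0.51 on arrays with a file, 1.16 on those without and 0.37 without the 4 that stood apart. Over all arrays the palmitoyltransferase ZDHHC21 and the calcium-binding CPNE8 had no call on 2 member probe sets each. On arrays with a file 1 of CPNE8 rose by 0.81 (limma adjusted p = 7.5e-04), and on those without 1 of ZDHHC21 fell by 1.65 (adjusted p = 0.0034), where it differed by 0.33 with a file. AFAP1, an actin-filament adaptor, had no call over all arrays, but fell by 0.90 on those without a file (limma adjusted p = 0.042) and without E7 or E18 replicate 4 (-0.77 and -0.65). GALNT10, which starts mucin-type O-glycans, had no call. BAIAP2, an adaptor at actin-rich protrusions, had no call on 2 probe sets, and DOCK2, a Rac activator of leukocytes, fell on 1 of 2, by 0.96. That call was lost on arrays with a file (-1.004, limma adjusted p = 0.051), on those without (-0.91) and without E7 replicate 1 or 3.

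Markers of macrophages and leukocytes, a list to which CD44 belongs, summed without it to 5309 to 6612 at E7, 8123 to 9962 at E10, 9784 to 10490 at E14 and 9801 to 12150 at E18. Of these 25 genes 8, among them PTPRC and SPI1, were below the signal limit at every age. CSF1R, the brightest of them and so the one that weighs most in a linear sum, had means of 11.88, 12.73, 12.85 and 12.92 at E7, E10, E14 and E18. CTSS had 9.09, 8.87, 9.38 and 9.54, CD74 had 7.98, 8.18, 8.46 and 9.18, and FCER1G had 7.66, 7.76, 6.94 and 7.20. Erythrocyte markers summed to 7975 to 16950, 3389 to 3497, 17270 to 17920 and 6629 to 53810 at the 4 ages, and were lowest at E10. The part of blood cells and macrophages in the member signal was not tested.

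The rule sets no order between E10 and E14. It does limit the size of their difference, since both means had to stay at least 0.7 above those of E7 and E18. The counts of calls below, set against all tested probe sets, are therefore in part fixed by that choice. In 63 members E10 was higher and in 36 E14. Over all 14 arrays 1 member fell from E10 to E14 and 0 rose, where 2.48% and 3.28% of all tested probe sets did, and 13 members had an unadjusted p under 0.05. The one that fell was SPDL1, which recruits dynein to kinetochores. It read 12.40, 12.43 and 12.38 at E10 and 11.59, 11.49 and 11.55 at E14, with 10.53, 9.93, 11.04 and 11.07 at E7 and 9.59, 9.49, 9.71 and 9.67 at E18. It fell by 0.86 (SE 0.21, limma adjusted p = 0.021). The call was lost in 8 alternative settings: median centring (-0.56, adjusted p = 0.257), no trend, and leaving out any 1 of the 6 arrays of E10 and E14 (-0.89 to -0.84, adjusted p from 0.063 to 0.082).

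This count depended on which arrays set the error. The fit shares 1 residual variance per probe set over the ages, and the low ages were the more variable. Fitted on the 9 arrays with a file, 17 members (17.2%), from 15 genes, fell and 8 (8.08%) rose, where 7.62% and 8.29% of all tested probe sets did. The largest of these falls in a matrix gene was LOX, which oxidizes lysines to crosslink collagen and elastin. It read 8.51, 9.01 and 9.17 at E10 and 7.71, 8.45 and 7.53 at E14, and fell by 1.00 (SE 0.26, limma adjusted p = 0.022). TGFBI fell by 0.55, COL11A1 by 0.72 on 1 of its 2 probe sets and RGS9BP by 0.68 in the same fit. The matrix gene COL9A3 went the other way on its 2 member probe sets. E14 was above E10 by 0.22, without a call, on the first and by 0.27 on the second. FHL2 rose by 0.63 (SE 0.06, limma adjusted p = 4.2e-05) and PDK1 by 0.23.

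**Figure D5:**
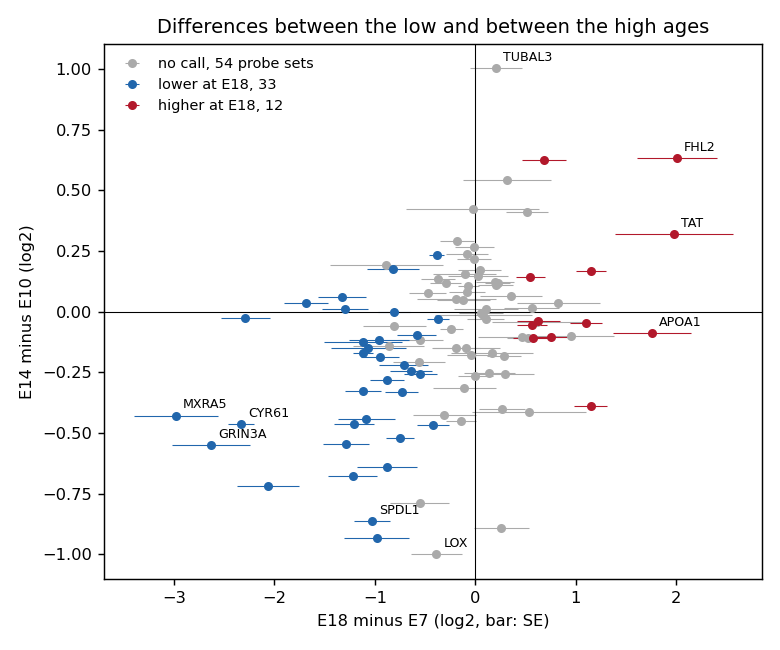
E18 minus E7 (x axis, log2, bars 1 SE, all 14 arrays) against E14 minus E10 (y axis, log2) for the 99 probe sets, coloured by the call for E18 against E7. Of these, 33 were lower at E18, 12 were higher and 54 had no call, and MXRA5, GRIN3A and CYR61 lie farthest to the left.

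Other probe sets of the member genes did not always share the peak. There were 77 for 42 genes, of which 44 had a mean under 7. Of the 33 above it, from 24 genes, 19 had a margin above 0 and 14 had none, with a range from -0.96 to 0.67, whose upper end the rule fixes, since any with 0.7 would be a member. Of the 44 dimmer ones, 8 had a margin of at least 0.7. HPS3, a subunit of a complex that builds melanosomes, had a member probe set with a margin of 0.96 and another with -0.31. FBXO22, a substrate receptor of a ubiquitin ligase, had 5 others with margins from -0.96 to -0.38. IFT88, a transport protein of cilia named here after its values were seen, had others at -0.24 and -0.56. Among those with a mean above 7, CPNE8 had another at -0.59, and SARDH had others at -0.30 and 0.61. COL11A1, whose 2 member probe sets peaked, had another with a margin of 0.09 over all arrays and -0.92 on arrays with a file. Its probe sets with a mean under 7 had 1.31 and -0.14 over all arrays, and 1.95 and -0.11 on arrays with a file. Whether these probe sets report different transcripts was not tested.

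The limit of 0.7 falls in a continuum. Just inside lay a probe set of SPARC at 0.7035, FBXO22 at 0.704, CYR61 at 0.708 and the cilium transport gene IFT74 at 0.722. Just outside lay BMP4 at 0.69988, TNFRSF1B at 0.697, VPS26B at 0.694 and FBN3 at 0.692. Of 77 member genes placed on the RefSeq assembly GRCg7b, 1 pair, SAP30L and GALNT10, were neighbouring protein-coding genes.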

How the data were processed

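Values are 1 linear intensity per probe set and array, deposited by the authors. With the top and bottom 2% of values removed, array means were 499.9 to 500.0, so the arrays had been scaled to a common mean before deposit. The summarising software is not given in the sources used here. The deposited instrument files hold settings only and served to tell arrays apart. Of 38535 probe sets, 96 controls were left out. Gene symbols came from the platform annotation (27168 probe sets with 1 symbol, 177 with several, 11094 with none), and 77 of 78 member symbols are unchanged in RefSeq. Intensities were taken as log2(value + 16) and quantile normalized. The dimmest 40% by mean signal were not tested, which left 23063. All arrays were fitted by age with limma 3.58.1 (lmFit, eBayes with a trend) in R 4.3.3, with Benjamini-Hochberg adjustment. Plots used matplotlib 3.10.9. The step was tested on simulated data: for E18 against E7 it found 38 of 67 probe sets changed by 1 (log2) and made 8 false calls over 23063. The simulated noise had the same spread at every age and no difference between array sets, unlike the data. These figures therefore need not hold for the real arrays.

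Members, gene lists and role groups were chosen with earlier results of these data known. Genes named are the 20 with the widest margin, up to 4 per gene list, the 6 largest called rises and falls per contrast, the 4 on each side of the limit and those with several member probe sets, which gives 44 of the 78, and others named are said to be chosen after their values were seen. This also holds for SARDH, IL20RA, TACC1, KLHDC8B and SAP30L. Replicate numbers do not pair the arrays: over 19 same-numbered pairs the correlation of deviations ran from -0.23 to 0.15. No pair of arrays was a duplicate (highest r 0.980). Alternatives were the pseudocount, scaling, filter, trend, array weights, the ages alone, the arrays with a file, leaving out each replicate and the replicate block. Chosen after seeing the data were the fits without the 4 arrays that stand apart, on the 5 arrays without a file, and with the array set or fluidics station as a block.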

Additional observations from a re-analysis of the deposited data

Results flagged for a closer look

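In 4 of 88 groups of 4 arrays (4.55%, where chance gives about 5%), 1 array stood far from the other 3. HORMAD1 at E7 read 6.9 on replicate 4, the E7 array with an instrument file, and 7.25 to 7.30 on the others. PDK1 at E7 read 12.48 on replicate 1 and 12.20 to 12.24 on the others. BAIAP2 at E7 read 10.01 on replicate 2 and 10.56 to 10.61 on the others, and at E18 it read 10.93 on replicate 1 and 10.55 to 10.60 on the others.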

How the results depend on the processing

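For E14 against E10, the count of members that fell was 1, and became 12 with array weights, 23 fitted on those ages alone, 17 on arrays with a file, 17 with the fluidics station as a block, 16 without the 4 arrays that stood apart, 2 on the deposited scale, 2 with 64 added, 0 with median centring and 0 without a trend. The count that rose was 0, and became 3 with array weights, 8 on those ages alone, 8 on arrays with a file, 4 with the station block, 5 without the 4 arrays and 1 with 64 added. Leaving out each replicate in turn gave 0 to 4 that fell and 0 to 1 that rose. For E18 against E7, 12 rose and 33 fell. The 5 arrays without a file gave 7 that rose, and leaving out a replicate gave 9 to 17 that rose and 24 to 37 that fell. With the replicate block 12 rose and 35 fell for E18 against E7, and 0 rose and 1 fell for E14 against E10. It was run although the numbers do not pair the arrays. Of the 99 members, a margin limit of 0.5 gave 206 and a limit of 1 gave 43, and leaving out a replicate gave 90 to 120. Median centring gave 128, of which 91 were shared. The peak margin reversed on the arrays with a file, and likewise without the 4 arrays, to -0.27 for FBXO22, -0.0238 for FHL2 and -0.23 for SCG2. The cause of these shifts was not tested. E7 has 1 array with a file, so its spread is assumed to be that of the other ages. In 8 members a low-age mean lies below the signal limit, that of E7 in 4 and that of E18 in 4. Their E18 against E7 difference uses that dim mean, while the margin is taken from the other low age, which lies above the limit.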
